A study of Mus musculus with 26 samples.

Results

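DNA replication and G1/S genes are described here across 2 mouse models of acute myeloid leukaemia (AML) in which the histone demethylase LSD1 (gene Kdm1a) was knocked out and all-trans retinoic acid (ATRA) was added. The set has 40 members named by symbol, all found in the count table of 48795 genes and all among the 14663 genes that had enough counts to be tested. RNA was sequenced from myeloid progenitor cells transformed by MN1 or by Hoxa9 together with Meis1 (H9M), on a C57BL/6 background with the Lsd1 allele LSD1TM1Schuele. In each model the 4 groups of 3 libraries were LSD1 knockout (KO) + ATRA, KO without ATRA, control (CTL) + ATRA and CTL without ATRA, with ATRA at 1 µM. Knockout was induced by 0.1 µM 4-hydroxytamoxifen (4-OHT) for 72 h, and all cells were grown with interleukin 3, interleukin 6 and stem cell factor. The labels do not say whether control cells received 4-OHT, and they write the strain of every library as CreERT2-, so an effect of 4-OHT or of Cre cannot be told apart from that of the knockout. They also do not say whether the 3 libraries of a group are separate cultures, so p-values measure only the spread between these libraries. The column names of all MN1 libraries share 1 LR code and those of all H9M libraries another, the labels do not say what the code stands for, and what it marks cannot be told apart from the model. A second assay measured H3K4me2, a histone mark of promoters and enhancers, in untreated lineage-negative bone marrow cells of C57BL/6 mice, in 1 library labelled GFI-KD and 1 labelled GFI1-WT.

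Before a cell copies its DNA, origin recognition proteins, CDC6 and CDT1 load the MCM helicase onto chromatin in G1, a step called licensing. At the start of S phase, CDC45 and the GINS complex switch the helicase on, polymerases copy the strands with the PCNA clamp and its RFC loader, and FEN1 and LIG1 process and seal the lagging strand. Many of these genes are transcribed in late G1 by E2F factors, which the retinoblastoma proteins hold back until cyclin-dependent kinases act. In blood cell progenitors this programme runs while cells proliferate and is shut down as they mature.

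Promoter sequences are shown for 5 members whose 300-base window holds a sequence that E2F factors are known to bind, and for Tyms, which holds none and did not fall with knockout. Each window runs from 250 bases before to 50 bases after a RefSeq start site (GRCm38.p6, the build of the deposited files), is printed 5′ to 3′ on the gene's strand, and has the E2F matches in capitals. The letters searched were TTTCCCGC, TTTGGCGC, TTTCGCGC and TTTGCCGC on both strands, and matches that overlap run together. The windows are chr8:75109259-75109558 on the plus strand for Mcm5, chr1:128359656-128359955 on the minus strand for Mcm6, chr4:108579204-108579503 on the plus strand for Orc1, chr11:98907901-98908200 on the plus strand for Cdc6, chr7:44548766-44549065 on the minus strand for Pold1 and chr5:30073576-30073875 on the minus strand for Tyms.
Mcm5: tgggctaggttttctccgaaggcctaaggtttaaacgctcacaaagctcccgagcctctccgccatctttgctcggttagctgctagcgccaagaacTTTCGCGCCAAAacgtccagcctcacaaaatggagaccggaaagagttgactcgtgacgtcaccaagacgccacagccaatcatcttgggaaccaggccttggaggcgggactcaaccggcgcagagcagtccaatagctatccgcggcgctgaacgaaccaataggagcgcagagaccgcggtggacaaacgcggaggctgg
Mcm6: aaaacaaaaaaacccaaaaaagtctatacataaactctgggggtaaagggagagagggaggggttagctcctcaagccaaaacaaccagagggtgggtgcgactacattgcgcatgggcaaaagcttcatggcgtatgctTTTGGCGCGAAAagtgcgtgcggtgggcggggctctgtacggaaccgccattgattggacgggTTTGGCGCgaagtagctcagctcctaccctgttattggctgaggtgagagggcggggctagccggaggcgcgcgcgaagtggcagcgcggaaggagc
Orc1: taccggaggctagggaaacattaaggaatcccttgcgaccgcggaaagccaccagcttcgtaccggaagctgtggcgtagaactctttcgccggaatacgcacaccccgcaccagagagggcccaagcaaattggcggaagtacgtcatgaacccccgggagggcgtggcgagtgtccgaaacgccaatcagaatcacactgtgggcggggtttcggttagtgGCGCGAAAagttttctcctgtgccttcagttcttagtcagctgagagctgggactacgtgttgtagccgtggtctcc
Cdc6: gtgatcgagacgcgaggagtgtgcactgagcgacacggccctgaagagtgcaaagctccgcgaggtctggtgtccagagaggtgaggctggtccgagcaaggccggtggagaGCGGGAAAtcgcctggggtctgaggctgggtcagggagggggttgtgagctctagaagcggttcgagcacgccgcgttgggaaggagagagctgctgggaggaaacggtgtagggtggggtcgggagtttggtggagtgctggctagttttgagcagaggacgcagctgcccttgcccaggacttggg
Pold1: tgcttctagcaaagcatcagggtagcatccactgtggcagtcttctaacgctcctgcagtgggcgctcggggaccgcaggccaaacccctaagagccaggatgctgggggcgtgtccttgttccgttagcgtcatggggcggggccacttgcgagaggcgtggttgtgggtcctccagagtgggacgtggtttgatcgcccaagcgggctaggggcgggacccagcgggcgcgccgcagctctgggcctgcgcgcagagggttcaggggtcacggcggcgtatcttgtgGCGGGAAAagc
Tyms: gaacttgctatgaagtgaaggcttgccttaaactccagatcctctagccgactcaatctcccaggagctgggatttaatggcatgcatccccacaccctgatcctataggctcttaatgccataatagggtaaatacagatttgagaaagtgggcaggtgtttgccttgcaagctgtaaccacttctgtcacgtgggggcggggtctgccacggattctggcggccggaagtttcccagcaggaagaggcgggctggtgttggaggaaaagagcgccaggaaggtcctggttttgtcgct
In Mcm5 the matches began 153 and 149 bases before the start site, and in Mcm6 they began 110, 106 and 47 bases before it. Orc1 had its match 27 bases and Cdc6 138 bases before the start site used, and Pold1 had it at base 40 of the transcript. Some start sites used lie inside the annotated gene, which begins at chr4:108575705 for Orc1 and chr11:98907709 for Cdc6. The matches of Orc1 and Cdc6 therefore lie inside their genes. RefSeq windows were at hand for 31 members, and 12 of them (38.7%) had a match, against 704 of 27025 genes (2.61%). The other members with a match were Mcm3, Mcm7, Cdt1, Gins3, Pola1, Rfc3 and Lig1. The box CCAAT on either strand was in 19 of the 31 (61.3%) and in 41.1% of all genes, and the cell cycle element CHR (TTTGAA or TTCGAA, either strand) was in 6 (19.4%) and in 21.7% of all genes. A match is a description of these letters and not evidence of binding.

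Library totals were between 22402558 and 32674685 counts, and values below are CPM, the count as a share of the TMM-normalised library total scaled to 1000000. Kdm1a, the targeted gene, had 1.24 to 2.23 CPM in the 6 MN1 KO libraries against 183 to 194 CPM in MN1 CTL, and 0.981 to 12.1 CPM in the 6 H9M KO libraries against 142 to 158 CPM in H9M CTL. The 3 H9M KO + ATRA libraries are the ones at 11.0 to 12.1 CPM, so 7.52% of the Kdm1a level of the H9M CTL + ATRA libraries was left there. Of the monocyte and macrophage markers, 14 of 16 tested were higher and 1 was lower in MN1 KO without ATRA, and 16 of 16 were higher in H9M KO, where 28.7% of all genes tested were higher in MN1 KO and 26.1% in H9M KO, shares against which the marker counts here are read. Their summed level over 18 genes was 1104 to 1123 CPM in MN1 KO against 769.6 to 784 CPM in MN1 CTL, and 2450.1 to 2492 CPM in H9M KO against 475 to 533 CPM in H9M CTL, all without ATRA. Markers of maturing neutrophils (9 of 12 higher, none lower, in both models) summed to 499 to 536 CPM in MN1 KO against 29.8 to 34.1 CPM in MN1 CTL, and to 2126 to 2426 CPM in H9M KO against 374 to 385 CPM in H9M CTL. Mast cell and basophil markers (7 of 7 higher in MN1, 2 higher and 1 lower in H9M) summed to 3289 to 3384 CPM in MN1 KO against 1469 to 1518 CPM in MN1 CTL, and to 211 to 222 CPM in H9M KO against 67.5 to 68.8 CPM in H9M CTL. Megakaryocyte markers were called higher for 6 and lower for 1 of 7 tested in MN1 and higher for 3 of 7 in H9M, and erythroid markers higher for 2 of 5 in both. B cell markers were lower for 1 of 4 in both models and summed to 0.502 to 0.554 CPM in MN1 KO against 0.413 to 0.559 CPM in MN1 CTL, and to 2.61 to 3.24 CPM in H9M KO against 19.3 to 19.9 CPM in H9M CTL. T and NK cell markers were higher for 2 of 3 in both and lower for 1 in MN1, and summed to 43.1 to 46.2 CPM in MN1 KO against 20.2 to 20.8 CPM in MN1 CTL, and to 23.2 to 28.3 CPM in H9M KO against 21.6 to 24.2 CPM in H9M CTL. Stromal markers, of 4 tested, were higher for 2 and lower for 1 in MN1 and higher for 2 and lower for 2 in H9M, and summed to 519.8 to 534 CPM in MN1 KO against 409 to 422 CPM in MN1 CTL, and to 623 to 632 CPM in H9M KO against 649 to 665 CPM in H9M CTL. Most of the stromal sum was Pecam1, an adhesion molecule that blood cells also carry, and most of the H9M CTL B cell sum was Ebf1, a B lineage factor. The part of these markers in the results below was not tested, and in bulk RNA fewer cells of a type and less RNA per cell cannot be told apart. Of these lists, the B cell marker Ms4a1, the T cell markers Cd3g and Cd8a and the stromal markers Col3a1, Dcn, Lum and Cdh5 had no count in any library.

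In MN1 cells without ATRA, nearly the whole replication set was lower in LSD1 knockout cells. Of the 40 members, 37 fell and 1 rose at an adjusted p under 0.05 by edgeR's quasi-likelihood test with Benjamini-Hochberg adjustment over all genes, where 26.3% of all genes tested fell and 28.7% rose. The median member changed by -0.42 on the log2 scale, a level 25.3% lower in knockout cells, against a median of 0.01 over all genes. Most falls were smaller than 1.5-fold, which 4 members passed (Gins2, Tk1, Pold1 and Ccne2). The share of all genes past 1.5-fold was not counted. In 39 members the 3 KO libraries were all below the 3 CTL libraries, where 29.6% of all genes were. In H9M cells without ATRA, 27 members fell and 1 rose, where 25.4% of all genes fell and 26.1% rose, and the median member changed by -0.21, a level 13.4% lower. The 3 H9M KO libraries were all below the 3 H9M CTL libraries for 29 members and all above them for 2, against 28.8% and 28.6% of all genes. A total of 26 members fell in both models. The share of all genes that fell in both was not counted, and it can be no more than the 25.4% of H9M.

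**Figure D1:**
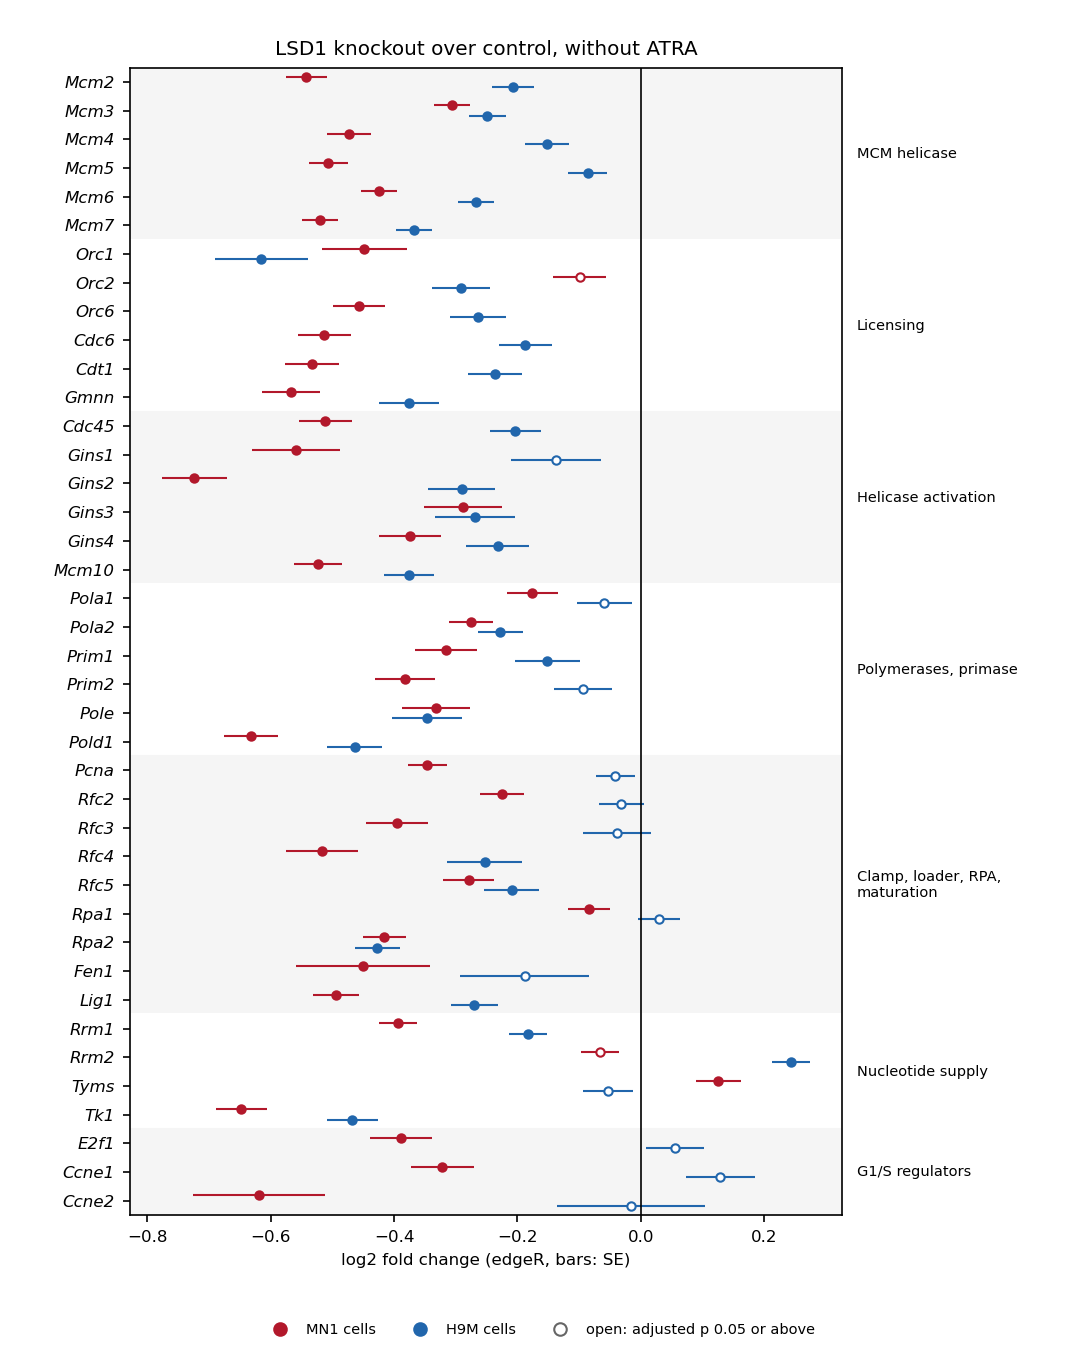
Log2 fold change of each of the 40 members in LSD1 knockout over control cells without ATRA, with the standard error, in MN1 cells (red, upper point of each pair) and H9M cells (blue, lower point). Filled points passed an adjusted p under 0.05, and members are grouped by role. Nearly all MN1 points lie left of 0 and left of the H9M point of the same gene.

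The 6 subunits of the MCM helicase fell in both models. Mcm7 had 344, 346 and 355 CPM in MN1 KO libraries, against 493, 496 and 508 CPM in MN1 CTL libraries (log2 fold change -0.52 ± 0.03 (SE), adjusted p = 1.46e-15). In H9M it had 315, 312 and 314 CPM in KO libraries, against 399, 404 and 410.5 CPM in CTL libraries (log2 fold change -0.37 ± 0.03 (SE), adjusted p = 5.59e-12). The KO and CTL libraries were apart in both models, and Mcm7 had the smallest adjusted p among falling members in both. The other 5 subunits changed by -0.31 (Mcm3) to -0.54 (Mcm2) in MN1 and by -0.09 (Mcm5) to -0.27 (Mcm6) in H9M, as log2 fold changes. The H9M call of Mcm5 was lost without KO replicate 2 or 3 or CTL replicate 3, and under 4 of the other settings tried.

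The licensing factors also fell, with Orc2, a core subunit of the origin recognition complex, as the exception in MN1. Orc1, the largest subunit of that complex, had 12.8, 13.6 and 14.3 CPM in MN1 KO, against 17.8, 18.2 and 19.4 CPM in MN1 CTL (log2 fold change -0.45 ± 0.07 (SE), adjusted p = 1.87e-06). Orc1 in H9M had 10.3, 11.2 and 10.6 CPM in KO, against 17.6, 15.6 and 16.03 CPM in CTL (log2 fold change -0.61 ± 0.07 (SE), adjusted p = 3.68e-08). That was the lowest fold change of any member in H9M, and the libraries of the groups did not overlap in either model. Cdt1, which brings the MCM complex to origins, had 74.8, 76.01 and 78.7 CPM in MN1 KO, against 114, 111 and 107 CPM in MN1 CTL (log2 fold change -0.53 ± 0.04 (SE), adjusted p = 7.3e-12). It had 92.8, 90.7 and 91.5 CPM in H9M KO, against 104, 109.7 and 109.8 CPM in H9M CTL (log2 fold change -0.24 ± 0.04 (SE), adjusted p = 2.94e-05). Gmnn, which encodes the CDT1 inhibitor geminin, fell alongside CDT1's own gene. It had 48.5, 51.2 and 52.6 CPM in MN1 KO, against 79.8, 71.9 and 73.99 CPM in MN1 CTL (log2 fold change -0.57 ± 0.05 (SE), adjusted p = 1.61e-11). It had 51.8, 53.6 and 52.8 CPM in H9M KO, against 68.3, 65.6 and 71.5 CPM in H9M CTL (log2 fold change -0.38 ± 0.05 (SE), adjusted p = 1.18e-07). Orc2 changed by -0.10 ± 0.04, adjusted p = 0.0507, in MN1 and by -0.29 ± 0.05, adjusted p = 3.82e-06, in H9M.

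All 6 helicase activation genes fell in MN1 and 5 did in H9M. Gins2, a subunit of the GINS complex, had 30.1, 30.4 and 31.9 CPM in MN1 KO, against 49.4, 48.1 and 54.97 CPM in MN1 CTL (log2 fold change -0.72 ± 0.05 (SE), adjusted p = 6.15e-13). It was the member with the lowest MN1 fold change, and its KO and CTL libraries were far apart. In H9M it had 33.7, 33.9 and 33.00 CPM in KO, against 39.02, 42.2 and 41.7 CPM in CTL (log2 fold change -0.29 ± 0.05 (SE), adjusted p = 3.98e-05). Mcm10, which helps to start the activated helicase, had 63.4, 63.6 and 65.6 CPM in MN1 KO, against 90.6, 93.4 and 92.8 CPM in MN1 CTL (log2 fold change -0.52 ± 0.04 (SE), adjusted p = 1.33e-12). It had 64.9, 65.6 and 64.1 CPM in H9M KO, against 80.7, 84.3 and 87.4 CPM in H9M CTL (log2 fold change -0.38 ± 0.04 (SE), adjusted p = 2.95e-09). Its KO libraries were below its CTL libraries in both models. Gins1, another GINS subunit and the exception in H9M, changed by -0.56 ± 0.07, adjusted p = 8.3e-08, in MN1 and by -0.14 ± 0.07, adjusted p = 0.116, in H9M.

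Of the 6 polymerase and primase genes, all fell in MN1 and 4 in H9M. Pold1, the catalytic subunit of DNA polymerase delta, had 91.4, 91.8 and 96.9 CPM in MN1 KO, against 142, 145 and 146 CPM in MN1 CTL (log2 fold change -0.63 ± 0.04 (SE), adjusted p = 2.3e-13). It had 89.9, 95.2 and 95.4 CPM in H9M KO, against 124, 126 and 137 CPM in H9M CTL (log2 fold change -0.46 ± 0.04 (SE), adjusted p = 3.5e-10). Pold1 had the lowest fold change of this role in both models, and Pola1, the catalytic subunit of polymerase alpha, had the highest, at -0.18 in MN1 and -0.06 (not called) in H9M. Pole, the catalytic subunit of polymerase epsilon, changed to a like extent in both, by -0.33 in MN1 and -0.35 in H9M. The H9M call of Prim1 was lost without KO replicate 2 or CTL replicate 2.

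Of the clamp, clamp loader, single-strand binding and strand maturation genes, all 9 fell in MN1 and 4 in H9M (Rfc4, Rfc5, Rpa2 and Lig1). Pcna, the sliding clamp, had 315, 317 and 331 CPM in MN1 KO, against 413, 397 and 414 CPM in MN1 CTL (log2 fold change -0.35 ± 0.03 (SE), adjusted p = 1.08e-10). In H9M it had 335, 324 and 326 CPM in KO, against 335, 340.2 and 338 CPM in CTL, with overlapping libraries and no call (log2 fold change -0.04 ± 0.03 (SE), adjusted p = 0.292). Rpa2, a subunit of the single-strand binding protein RPA, fell by a like amount in both models. It had 103, 102 and 110.5 CPM in MN1 KO, against 146, 136 and 139 CPM in MN1 CTL (log2 fold change -0.42 ± 0.04 (SE), adjusted p = 1.9e-11), and in H9M it had 82.7, 81.3 and 85.8 CPM in KO, against 113, 112 and 110.2 CPM in CTL (log2 fold change -0.43 ± 0.04 (SE), adjusted p = 2.46e-11). Rpa1, the large RPA subunit, changed by -0.08 ± 0.03, adjusted p = 0.035, in MN1, a call that was lost without KO replicate 1 or 2 or CTL replicate 1 or 3, and by 0.03 ± 0.03, adjusted p = 0.512, in H9M. Lig1, the ligase of the lagging strand, had 142, 141 and 146 CPM in MN1 KO, against 200.4, 195 and 209.5 CPM in MN1 CTL (log2 fold change -0.49 ± 0.04 (SE), adjusted p = 2.01e-12). It had 135, 135 and 132 CPM in H9M KO, against 157, 163 and 163 CPM in H9M CTL (log2 fold change -0.27 ± 0.04 (SE), adjusted p = 6e-07). Fen1, the flap endonuclease, was counted at 3.73 to 7.52 CPM over all 24 libraries and was called in MN1 (-0.45) and not in H9M (-0.19).

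The genes of nucleotide supply went in different directions. Tk1, thymidine kinase, had 44.02, 43.3 and 43.4 CPM in MN1 KO, against 64.6, 70.1 and 69.9 CPM in MN1 CTL (log2 fold change -0.65 ± 0.04 (SE), adjusted p = 2.71e-14). It had 55.1, 53.05 and 54.6 CPM in H9M KO, against 73.8, 73.4 and 77.8 CPM in H9M CTL (log2 fold change -0.47 ± 0.04 (SE), adjusted p = 4.27e-11). Both falls were among the lowest fold changes of the set, while the other subunits and enzymes of this role moved less. Rrm2, the regulatory subunit of ribonucleotide reductase, had 275, 284 and 287 CPM in MN1 KO, against 294, 296 and 295 CPM in MN1 CTL (log2 fold change -0.07 ± 0.03 (SE), adjusted p = 0.0649), with all KO libraries below the CTL libraries but no call. In H9M it had 249, 257 and 247 CPM in KO, against 212, 211 and 214 CPM in CTL (log2 fold change 0.24 ± 0.03 (SE), adjusted p = 1.03e-07), and was the only member called higher there. Its partner subunit Rrm1 fell in both, by -0.39 in MN1 and -0.18 in H9M on the log2 scale. Tyms, thymidylate synthase, had 211, 209 and 214 CPM in MN1 KO, against 189.7, 197 and 194 CPM in MN1 CTL (log2 fold change 0.13 ± 0.04 (SE), adjusted p = 0.00412), and was the only member called higher in MN1. In H9M it had 73.6, 69.00 and 73.7 CPM in KO, against 72.7, 76.7 and 75.05 CPM in CTL, which overlapped (log2 fold change -0.05 ± 0.04 (SE), adjusted p = 0.288). Rrm2 and Tyms were the 2 members called lower in none of the 4 knockout comparisons, with or without ATRA.

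The 3 G1/S regulators fell in MN1 and none was called in H9M. E2f1, a transcription factor that activates replication genes, had 28.4, 30.6 and 32.02 CPM in MN1 KO, against 42.6, 37.6 and 39.1 CPM in MN1 CTL (log2 fold change -0.39 ± 0.05 (SE), adjusted p = 9.42e-08). E2f1 in H9M had 58.4, 55.2 and 57.1 CPM in KO, against 53.9, 53.7 and 56.6 CPM in CTL, which overlapped (log2 fold change 0.06 ± 0.05 (SE), adjusted p = 0.341). The cyclins E activate CDK2 at the G1/S boundary. Ccne1 had 37.2, 40.2 and 40.4 CPM in MN1 KO, against 50.9, 48.6 and 47.8 CPM in MN1 CTL (log2 fold change -0.32 ± 0.05 (SE), adjusted p = 3.1e-06), and in H9M it had 32.9, 34.2 and 32.6 CPM in KO, against 30.2, 30.9 and 30.1 CPM in CTL (log2 fold change 0.13 ± 0.06 (SE), adjusted p = 0.0531). The H9M KO libraries of Ccne1 were thus all above those of CTL, just short of the threshold. Ccne2 had 18.7, 20.8 and 21.2 CPM in MN1 KO, against 35.7, 27.1 and 30.7 CPM in MN1 CTL (log2 fold change -0.62 ± 0.11 (SE), adjusted p = 1.12e-05), and in H9M it had 17.1, 17.5 and 16.2 CPM in KO, against 18.97, 16.00 and 16.5 CPM in CTL, which overlapped (log2 fold change -0.02 ± 0.12 (SE), adjusted p = 0.941).

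**Figure D2:**
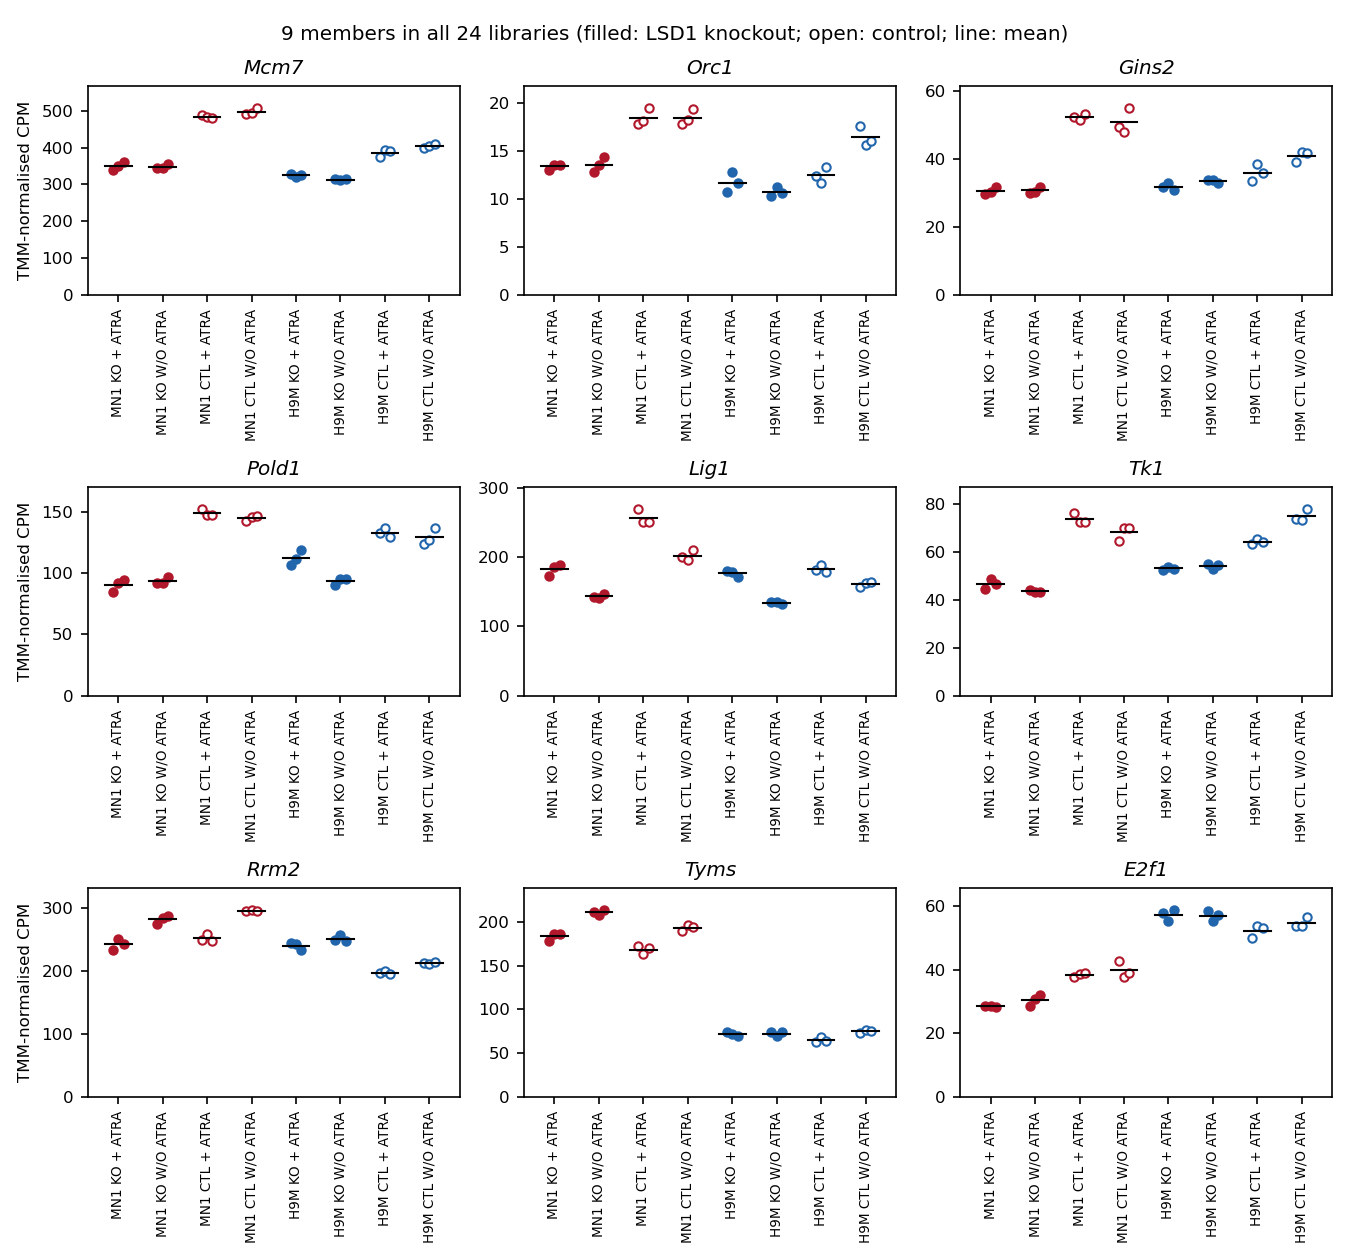
TMM-normalised CPM of 9 members in each of the 24 libraries, from 0 on the vertical axis. Groups run from KO + ATRA to CTL without ATRA for MN1 (red) and then H9M (blue), filled points are knockout libraries, open points control libraries and lines group means. Mcm7, Gins2, Pold1 and Tk1 are lower in every knockout group than in its control, while Rrm2 in H9M and Tyms in MN1 are higher, and E2f1 is lower in knockout only in MN1 by the group means.

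The knockout effect without ATRA was compared between the models by the difference of the 2 log2 fold changes. It was lower in MN1 than in H9M for 26 members and higher for 2, where 14.2% of all genes were called lower and 14.2% higher, and the median difference over the members was -0.19. The difference was below 0 for 35 of the 40 members. By adjusted p, the members with the firmest difference were Mcm5 (-0.42 ± 0.04, adjusted p = 8.4e-09), Rrm2 (-0.31 ± 0.04, adjusted p = 1.52e-06), Mcm2 (-0.34 ± 0.05, adjusted p = 1.91e-06) and Pcna (-0.30 ± 0.04, adjusted p = 3.06e-06). Ccne2 (-0.60), Ccne1 (-0.45) and E2f1 (-0.44) had the lowest differences of the set. The 2 members whose fold change was higher in MN1 were Tyms (0.18 ± 0.05, adjusted p = 0.0129) and Orc2 (0.19 ± 0.06, adjusted p = 0.0216). The call of Tyms was lost without H9M KO replicate 2, and that of Orc2 without H9M KO replicate 3, MN1 KO replicate 3 or MN1 CTL replicate 1. Among the 26 lower calls, that of Mcm10 was lost under 13 settings, Pold1 under 10, Gmnn under 7, Tk1 under 4, Orc6 under 3 and Rfc4 under 1. Of all 28 calls, 20 held under every setting tried. Rpa2, Pole, Gins3 and Mcm3 were not called, with differences of 0.01, 0.01, -0.02 and -0.06 and standard errors of 0.05, 0.08, 0.09 and 0.04. Over the 40 members the MN1 and H9M fold changes, which share no library, had a Pearson r of 0.48 and a Spearman rho of 0.43, with all members read from the same 6 libraries in each model.

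**Figure D3:**
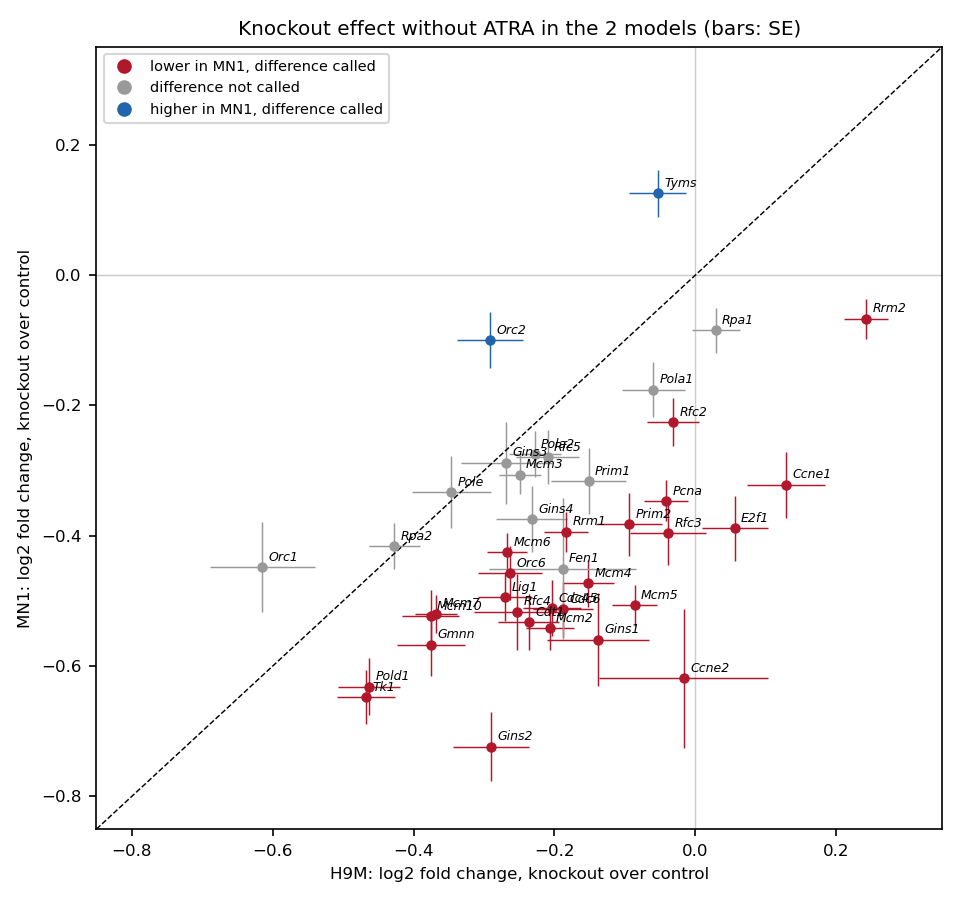
Log2 fold change of each member in knockout over control without ATRA, in MN1 (vertical axis) against H9M (horizontal axis), with standard errors and a dashed line of equal effect. Red points are members with a called lower effect in MN1, blue points those with a called higher one (Tyms and Orc2) and grey points those not called. Most points lie below the line, and Rrm2, Ccne1, E2f1, Pcna and Ccne2 lie near or right of 0 for H9M and below 0 for MN1.

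With ATRA present, most members were lower in MN1 knockout cells, while in H9M knockout cells members were called in both directions. In MN1 + ATRA, 37 members fell and 1 (Tyms) rose, where 28.6% of all genes fell and 28.6% rose, and the median member changed by -0.44. Mcm2 had 265, 277 and 291 CPM in MN1 KO + ATRA, against 410.0, 415 and 406 CPM in MN1 CTL + ATRA (log2 fold change -0.56 ± 0.03 (SE), adjusted p = 6.71e-15), the smallest adjusted p of this comparison. Tyms had 179, 186 and 187 CPM in MN1 KO + ATRA, against 173, 164 and 169.8 CPM in MN1 CTL + ATRA (log2 fold change 0.12 ± 0.04 (SE), adjusted p = 0.00439). The calls of Orc2 and Pola1 were lost without CTL + ATRA replicate 2 or KO + ATRA replicate 2, and that of Pola1 also without KO + ATRA replicate 1 or 3. Both were lost under RLE scaling, library totals alone and DESeq2, and Pola1 also with no filter, the replicate block and libraries of 1 model. In H9M + ATRA, 17 members fell and 7 rose, where 24.4% of all genes fell and 26.7% rose, and the median was -0.09. The 7 that rose were Rrm2, Pola1, Rfc2, Rfc3, Rpa1, Tyms and E2f1, by 0.10 (Rfc2) to 0.28 (Rrm2) on the log2 scale. Rrm2 had 243, 243 and 234 CPM in H9M KO + ATRA, against 196, 199.7 and 196 CPM in H9M CTL + ATRA (log2 fold change 0.28 ± 0.03 (SE), adjusted p = 5.76e-09). Mcm7 had 328, 322 and 326 CPM in H9M KO + ATRA, against 374, 394 and 392 CPM in H9M CTL + ATRA (log2 fold change -0.25 ± 0.03 (SE), adjusted p = 2e-08). Without single libraries of this comparison, 4 to 7 members were called higher and 13 to 19 lower, with the 4 without KO + ATRA replicate 1. Calls were lost without CTL + ATRA replicate 1 (E2f1, Rfc2 and Rrm1), replicate 2 (Pola1, Mcm2, Gins2, Pola2 and Rrm1) or replicate 3 (Rfc2 and Pola2). They were also lost without KO + ATRA replicate 1 (E2f1, Pola1 and Rfc2), replicate 2 (Pola1 and Rfc2) or replicate 3 (E2f1, Cdc45, Gins2, Pola2 and Rrm1). A total of 16 members were called lower in all 4 knockout comparisons: Mcm2, Mcm3, Mcm6, Mcm7, Orc6, Gmnn, Cdc45, Gins2, Gins4, Mcm10, Pola2, Pole, Pold1, Rpa2, Rrm1 and Tk1. The share of all genes called lower in all 4 was not counted, and it can be no more than the 24.4% of H9M + ATRA. Among the 16, the H9M + ATRA calls of Pola2 and Rrm1 were also lost under RLE scaling, no filter, libraries of 1 model and DESeq2. That of Pola2 was lost with the replicate block too.

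In H9M control cells, most of the called members were lower with ATRA (17 lower, 2 higher). In MN1 control cells 32 members were not called, 6 were lower and 2 higher, and the sign of the median change depended on the scaling. In MN1 CTL, 6 members fell with ATRA and 2 rose, where 10.4% of all genes fell and 11.4% rose, and the median was -0.02. By library totals alone, without TMM, 4 rose and 6 fell, the median was 0.0058, and 1955 of 3073 called genes were higher, against 1669 of 3199 with TMM. Rrm2 had 249.5, 258 and 247 CPM in MN1 CTL + ATRA, against 294, 296 and 295 CPM in MN1 CTL without ATRA (log2 fold change -0.23 ± 0.03 (SE), adjusted p = 1.11e-06). Lig1 had 269, 250.5 and 251 CPM in MN1 CTL + ATRA, against 200.4, 195 and 209.5 CPM in MN1 CTL without ATRA (log2 fold change 0.35 ± 0.04 (SE), adjusted p = 1.57e-08). Rrm2, Tyms, Rrm1, Orc2, Pola1 and Ccne1 are the 6 that fell, and Tk1 (0.11) is the other that rose, a call lost without CTL + ATRA replicate 1, 2 or 3 or CTL replicate 1. The call of Pola1 was lost without CTL replicate 3. In H9M CTL, 17 members fell and 2 rose, where 12.3% of all genes fell and 12.9% rose, and the median was -0.10. By library totals alone 1495 of 4115 called genes were higher, against 1887 of 3695 with TMM, and 22 members fell and 2 rose. With RLE scaling, with DESeq2 and with libraries of 1 model, 15 fell and 2 rose. The call of Pcna was lost under 10 settings, that of Gmnn under 7 and that of Gins2 under 1. Cdc45, a helicase activator, had 109, 112 and 114 CPM in H9M CTL + ATRA, against 129, 135 and 143 CPM in H9M CTL without ATRA (log2 fold change -0.28 ± 0.04 (SE), adjusted p = 4.8e-06). Lig1 had 181, 188 and 178 CPM in H9M CTL + ATRA, against 157, 163 and 163 CPM in H9M CTL without ATRA (log2 fold change 0.18 ± 0.04 (SE), adjusted p = 0.000696), and Mcm3 was the other member that rose (0.12). The lowest fold changes were those of Ccne2 (-0.59 ± 0.13, adjusted p = 0.000732) and Orc1 (-0.40 ± 0.07, adjusted p = 0.000108).

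The ATRA effect in control cells was higher in MN1 than in H9M for 10 members and lower for 1, where 6.64% and 7.15% of all genes were called, and the median difference was 0.05. By library totals alone 11 members were higher and 0 lower, the median difference was 0.11, and 1667 of 2341 called genes were higher, against 974 of 2022 with TMM. The firmest differences were Cdc45 (0.36 ± 0.06, adjusted p = 6.5e-05), Tk1 (0.33 ± 0.06, adjusted p = 7.67e-05), Gins3 (0.40 ± 0.09, adjusted p = 0.00187) and Orc6 (0.25 ± 0.06, adjusted p = 0.00441), and the lower one was Rrm1 (-0.13 ± 0.04, adjusted p = 0.0469), whose call was lost without any library but H9M CTL replicate 3 or MN1 CTL replicate 2. Leaving out single libraries brought the 11 calls to between 6 and 10, with 6 without H9M CTL replicate 2 or MN1 CTL replicate 1 or 2 and 7 without H9M CTL replicate 3, H9M CTL + ATRA replicate 3 or MN1 CTL + ATRA replicate 1 or 3. Cdc45, Tk1, Gins3, Orc6 and Orc1 were called under every setting tried.

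**Figure D4:**
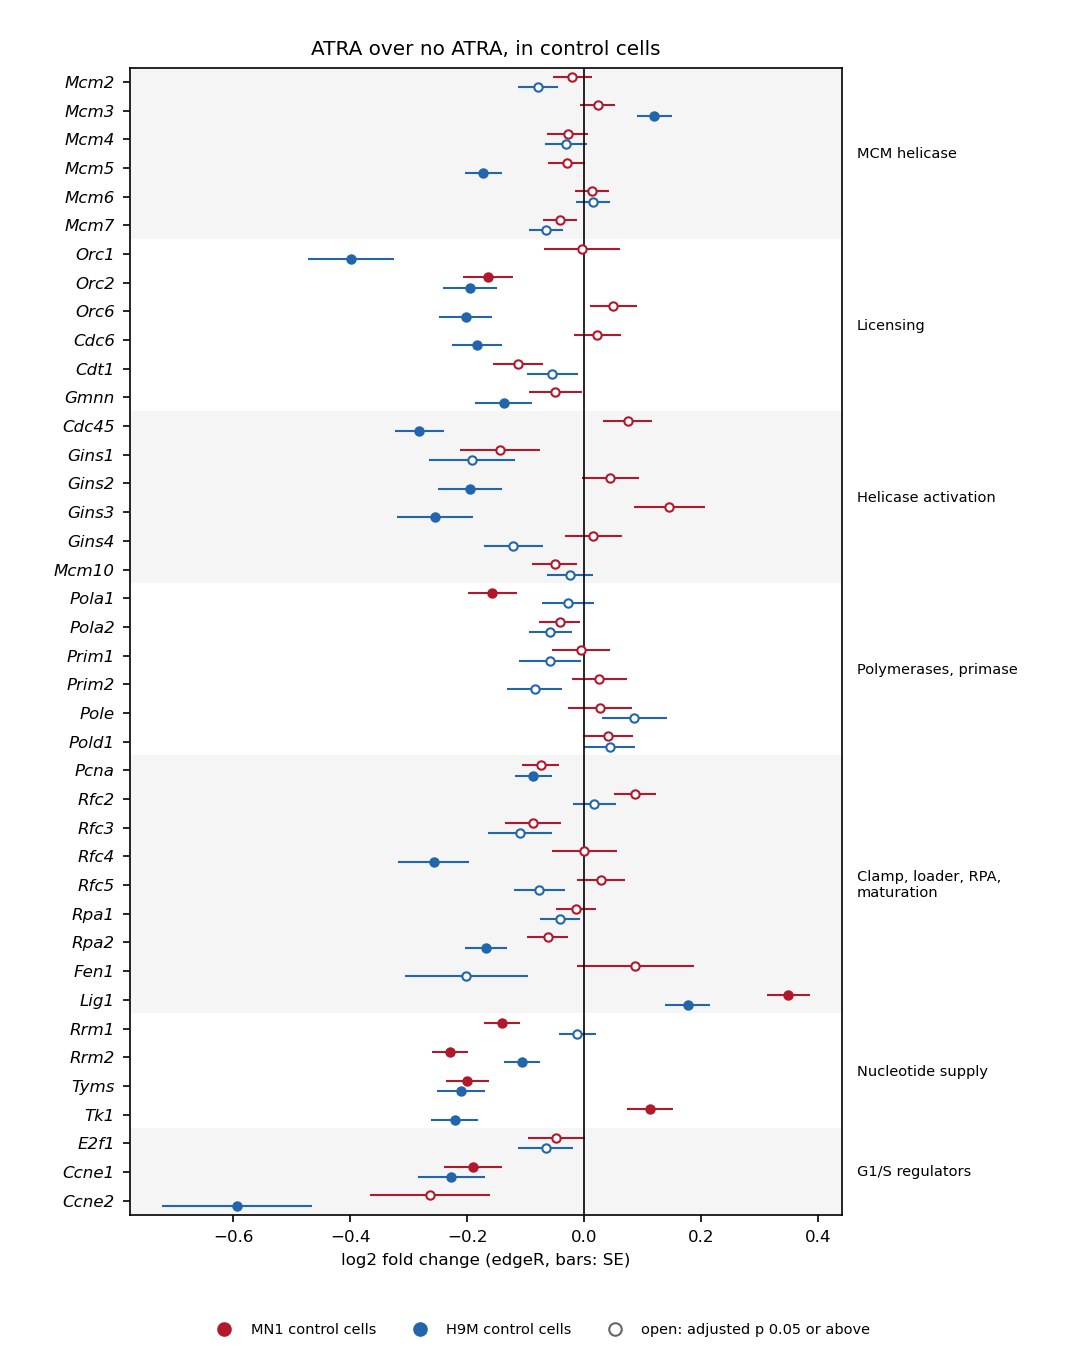
Log2 fold change of each of the 40 members in control cells with over without ATRA, with the standard error, in MN1 (red, upper point) and H9M (blue, lower point). Filled points passed an adjusted p under 0.05. Lig1 lies right of 0 in both models, while Cdc45, Gins3, Tk1 and Orc1 lie left of 0 in H9M and near or right of 0 in MN1.

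In knockout cells most members were not called with ATRA, 34 in MN1 and 27 in H9M. Calls went in both directions in H9M, and the balance of lower and higher calls in MN1 depended on the scaling. In MN1 KO, 5 members fell with ATRA and 1 (Lig1) rose, where 10.4% of all genes fell and 8.42% rose, and by library totals alone 3 fell and 4 rose, with 1707 of 2543 called genes higher, against 1234 of 2759 with TMM. The count that fell was also 3 without KO + ATRA replicate 1 (3 then rose) or without KO replicate 2 or 3. Rrm2 had 233, 250.3 and 243 CPM in MN1 KO + ATRA, against 275, 284 and 287 CPM in MN1 KO without ATRA (log2 fold change -0.22 ± 0.03 (SE), adjusted p = 3.13e-06). Lig1 had 173, 186 and 188 CPM in MN1 KO + ATRA, against 142, 141 and 146 CPM in MN1 KO without ATRA (log2 fold change 0.35 ± 0.04 (SE), adjusted p = 2.83e-08). In H9M KO, 9 members rose and 4 fell, where 13.9% of all genes rose and 15.4% fell, the median member changed by 0.03, and by library totals alone 7 rose and 6 fell, with a median of 0.0051. Of the monocyte and macrophage markers, 11 of 16 were lower and 2 higher with ATRA in H9M KO, at a summed 1825 to 1863 CPM in H9M KO + ATRA against 2450.1 to 2492 CPM in H9M KO without ATRA. Of the neutrophil markers, 7 of 12 were lower and 3 higher, at 1322 to 1405 CPM in H9M KO + ATRA against 2126 to 2426 CPM in H9M KO without ATRA. In MN1 KO, 5 of 16 and 5 of 12 were lower with ATRA, and 3 and 2 higher. The part of these markers in the members' changes was not tested. Without H9M KO + ATRA replicate 1, 7 members were called lower and 7 higher with ATRA in H9M KO. Lig1 had 179, 179 and 171 CPM in H9M KO + ATRA, against 135, 135 and 132 CPM in H9M KO without ATRA (log2 fold change 0.40 ± 0.04 (SE), adjusted p = 9.6e-10). Ccne1 had 28.5, 25.3 and 26.99 CPM in H9M KO + ATRA, against 32.9, 34.2 and 32.6 CPM in H9M KO without ATRA (log2 fold change -0.30 ± 0.06 (SE), adjusted p = 9.69e-05). Lig1 was thus called higher with ATRA in all 4 of these comparisons, and the libraries with and without ATRA did not overlap in any.

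Whether knockout and ATRA combined other than additively on the log2 scale was tested by the interaction. In MN1, 0 members were called by edgeR's quasi-likelihood test, where 1.09% of all genes were called above 0 and 1.68% below, with 2 members at an unadjusted p under 0.05 and 0 called by DESeq2. In H9M, 7 members were called, all above 0, where 2.25% of all genes were called above 0 and 2.79% below. They were Orc1 (0.52 ± 0.11, adjusted p = 0.0019), Lig1 (0.22 ± 0.05, adjusted p = 0.00999), Mcm5 (0.16 ± 0.04, adjusted p = 0.0306), Pold1 (0.22 ± 0.06, adjusted p = 0.0346), Cdc6, Tyms and Mcm3, and a value above 0 means that the knockout effect was less negative, or more positive, with ATRA than without. For Orc1 the knockout effect was -0.09 with ATRA, which was not called, and -0.61 without. Of the monocyte and macrophage markers, 8 of 16 were called below 0 in this interaction and 0 above, and of the neutrophil markers 2 of 12 below and 3 above, and their part was not tested. The count was between 2 and 4, in place of 7, without H9M CTL + ATRA replicate 1 or 3, CTL replicate 2 or 3, or any of the 6 KO libraries, and Orc1 and Lig1 were the 2 called under every setting. Kdm1a was not fully lost in H9M KO + ATRA, as given above, and after the matching share of control counts was removed, a setting chosen after the data were seen, 6 members were called.

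Both treatments together were set against untreated control cells. In MN1 KO + ATRA, 38 members fell and 0 rose relative to MN1 CTL without ATRA, where 29.8% of all genes fell and 30.8% rose, with a median of -0.47 and all 40 fold changes below 0. The log2 fold change was -0.01 ± 0.03, adjusted p = 0.829, for Rpa1 and -0.08 ± 0.04, adjusted p = 0.0745, for Tyms, the 2 not called. DESeq2 also called 0 higher. Mcm7 had 339.6, 349 and 362 CPM in MN1 KO + ATRA, against 493, 496 and 508 CPM in MN1 CTL without ATRA (log2 fold change -0.51 ± 0.03 (SE), adjusted p = 1.7e-15). In H9M KO + ATRA, 26 members fell and 4 rose relative to H9M CTL without ATRA, where 27.9% of all genes fell and 28.4% rose, with a median of -0.16. Rpa2 had 80.4, 81.8 and 82.01 CPM in H9M KO + ATRA, against 113, 112 and 110.2 CPM in H9M CTL without ATRA (log2 fold change -0.46 ± 0.04 (SE), adjusted p = 3.98e-12). Rrm2 had 243, 243 and 234 CPM in H9M KO + ATRA, against 212, 211 and 214 CPM in H9M CTL without ATRA (log2 fold change 0.18 ± 0.03 (SE), adjusted p = 1.38e-05). The 4 that rose were Rrm2, Rfc2, Rpa1 and Lig1. The calls of Rfc2 and Rpa1 were lost by library totals alone, with no filter, without CTL replicate 1 (Rfc2) or without KO + ATRA replicate 1 (Rpa1). Among the falls, calls were lost for Cdt1 (5 settings), Pole (4), Mcm5, Rrm1 and Ccne2 (3 each) and Ccne1 (1). With RLE scaling and with DESeq2, 22 members fell and 5 rose.

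**Figure D5:**
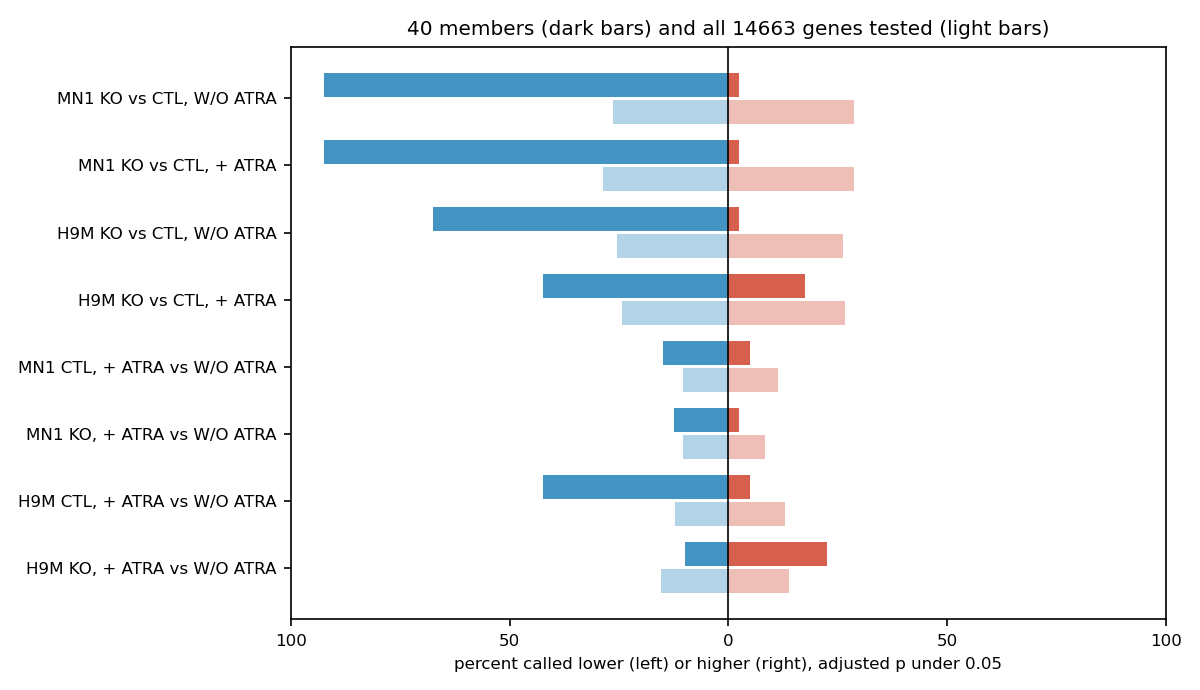
Percent of the 40 members (dark bars) and of all 14663 genes tested (light bars) called lower (left, blue) or higher (right, red) in the 8 direct comparisons of knockout and of ATRA within a model. In the 4 knockout comparisons the members' bars reach further left than those of all genes, while the bars of all genes are nearly even.

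Genes around the set were read, here and in the next paragraph, from lists of textbook members. The lists were chosen with earlier results of these data known, so they are not independent support. Over all genes, 26.3% fell and 28.7% rose in MN1 KO without ATRA, and 25.4% fell and 26.1% rose in H9M KO. Of 35 other replication genes (further origin, fork and polymerase factors, chromatin assembly and nucleotide enzymes), 30 fell and 1 rose in MN1 KO without ATRA, and 24 fell and 3 rose in H9M KO. Their median log2 fold changes were -0.42 in MN1 and -0.23 in H9M. Recql4, a helicase of replication start, fell in both (-0.92 ± 0.07, adjusted p = 3.13e-12, in MN1 and -0.84 ± 0.08, adjusted p = 2.34e-10, in H9M), and so did Uhrf1, which couples DNA methylation to replication (-0.51 ± 0.04, adjusted p = 1.73e-13, and -0.42 ± 0.04, adjusted p = 2.19e-11). Of 30 mitosis and G2/M genes, 27 fell and 1 rose in MN1 and 20 fell and 1 rose in H9M. Aurka, a mitotic kinase, changed by -0.55 in MN1 and -0.33 in H9M, and Nusap1, a spindle protein, was the 1 that rose in both (0.17 and 0.18). Mki67, the proliferation marker Ki-67, changed by -0.36 ± 0.12, adjusted p = 0.0101, in MN1 and by 0.02 ± 0.12, adjusted p = 0.917, in H9M. Of 32 tested genes of the replication-dependent histone clusters, chosen by their names out of 67, 2 rose and 1 fell in MN1 and 1 rose and 1 fell in H9M. All genes of these clusters together summed to only 70.7 to 90.7 CPM in MN1 KO against 64.7 to 70.0 CPM in MN1 CTL. In H9M the sums were 47.5 to 61.8 CPM in KO against 57.0 to 59.9 CPM in CTL. At such low levels a lack of calls does not show that these genes were unchanged.

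Of 30 genes of G1/S control, 15 fell and 6 rose in MN1 KO without ATRA, where 26.3% of all genes fell and 28.7% rose. In H9M KO 15 fell and 9 rose, where 25.4% of all genes fell and 26.1% rose. Cdkn1a, which encodes the CDK inhibitor p21, had 435, 437 and 420.4 CPM in MN1 KO, against 186, 177 and 169 CPM in MN1 CTL (log2 fold change 1.28 ± 0.04 (SE), adjusted p = 2.84e-21). Cdkn1a in H9M had 128, 116 and 121 CPM in KO, against 24.3, 24.1 and 20.5 CPM in CTL (log2 fold change 2.40 ± 0.05 (SE), adjusted p = 4.57e-26). The inhibitor gene Cdkn2c rose in both (1.55 ± 0.16, adjusted p = 9.5e-10, in MN1 and 3.21 ± 0.18, adjusted p = 1.23e-15, in H9M), and so did E2f2, an activating E2F (0.63 ± 0.06, adjusted p = 5.98e-11, and 1.47 ± 0.05, adjusted p = 1.11e-21). The inhibitor gene Cdkn1b (p27) was not called in MN1 (0.05 ± 0.11, adjusted p = 0.73) and rose in H9M (0.36 ± 0.10, adjusted p = 0.00201). Mybl2, a factor of the S and G2 programme, fell in both (-0.69 ± 0.04, adjusted p = 3.19e-15, and -0.79 ± 0.04, adjusted p = 6.15e-17). Myc changed by -0.21 in MN1 and -0.23 in H9M, both called. Ccna2, which encodes cyclin A, fell in MN1 (-0.47 ± 0.03, adjusted p = 1.91e-13) and was not called in H9M (-0.07 ± 0.03, adjusted p = 0.0932). The D cyclins, which start the G1 kinase step, went in different directions: Ccnd2 changed by 0.17 in MN1 and -0.17 in H9M, both called, while Ccnd3 was at -0.03 in MN1, not called, and at 0.49 in H9M, called. Ccnd1 changed by 1.30 ± 0.46, adjusted p = 0.0155, in MN1 and was not called in H9M (0.39 ± 0.49, adjusted p = 0.53). Of 16 p53 target genes, Cdkn1a among them, 16 rose in MN1 and 12 rose with 0 falling in H9M, where 28.7% and 26.1% of all genes rose. Ccng1 and Zmat3 rose in both, by 1.28 and 1.86 in MN1 and by 1.03 and 1.91 in H9M.

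The promoter windows shown above were set beside the knockout effects. Of the 12 members with an E2F match, 12 fell in MN1 and 10 in H9M, with median log2 fold changes of -0.47 and -0.26. Of the 19 members whose windows lacked these letters, 16 fell and 1 rose in MN1 and 12 fell and 1 rose in H9M, with medians of -0.39 and -0.20. E2f1 is among these 19, and its window, chr2:154569377-154569676 on the minus strand, lies inside the annotated gene. That gene begins at chr2:154569892, and the sequence before it was not searched. Of the 9 members with no window, 9 fell in MN1 and 5 in H9M, with medians of -0.47 and -0.15. Over all genes, 26.3% fell in MN1 and 25.4% in H9M. Tk1 (-0.65 in MN1) and Rpa2 (-0.42) were among the members without a match that fell. Only exact letters were searched, so a window without a match may still hold a near match. The part of E2F sites in these changes was not tested.

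H3K4me2 at these promoters was read in bone marrow cells, as reads within 1000 bases of the start site scaled to 1000000 kept reads (RPM), from 9538627 reads in GFI-KD and 8949072 in GFI1-WT. With 1 library each there is no replicate check and no test, and intervals cover counting error only. For the 31 members with a start site, the ratio of GFI-KD over GFI1-WT was between 0.741 and 1.24 with a median of 1.01, and 0 passed 1.5-fold. Over 15179 promoters with at least 20 reads the median ratio was 0.988, and 13.4% were 1.5-fold or more higher and 6.56% lower. The lowest ratio was at Rpa1, with 26.8 RPM (95% exact Poisson interval 23.7 to 30.3) in GFI-KD against 36.2 RPM (32.4 to 40.4) in GFI1-WT. The highest was at Ccne1, with 42.2 RPM (38.2 to 46.6) in GFI-KD against 34.2 RPM (30.5 to 38.2) in GFI1-WT. Reads at the 31 members had a median of 26.8 RPM in GFI-KD and 27.3 RPM in GFI1-WT, against medians of 23.3 and 23.0 RPM over all promoters.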

How the data were processed

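RNA counts per gene, with Ensembl identifiers, were deposited by the authors as 1 table. The submitters' processing notes name STAR 2.5.3, a read aligner, and the mouse build mm10; the sources used here name neither the counting tool nor its strand setting, so genes overlapping a member on either strand may share reads with it. The library kit was stranded, per the labels' protocols. The 2 H3K4me2 files hold aligned reads with a mapping quality score, as deposited by the authors; the processing notes name CASAVA 1.8.2, BWA, bedtools 2.27.0 and GRCm38.

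Symbols came from a gene name table, which matched 48349 identifiers and left 446 unmatched. Genes passing edgeR's filterByExpr (minimum count 10) were fitted with edgeR 4.0.16 (limma 3.58.1, R 4.3.3) by the quasi-likelihood test after TMM normalisation, as 8 groups and 24 libraries in 1 model, with 16 residual degrees of freedom and a common biological coefficient of variation of 4.01%. The 14 comparisons were each adjusted over all 14663 genes by the Benjamini-Hochberg method. Standard errors are the log2 fold change over the square root of F. The procedure was tested on simulated counts. Replicates of a group differed by more than sampling noise. H3K4me2 reads with mapping quality of at least 10 within 1000 bases of a RefSeq start site were counted where both libraries together held at least 20 reads.

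Per-library values are given for the called member with the smallest adjusted p in each direction of each direct comparison and of each role without ATRA, and always for E2f1, Ccne1, Ccne2, Pcna, Cdt1 and Gmnn. Differences between models and interactions name the called member with the smallest adjusted p in each direction and up to 3 more by adjusted p. Pathway lists name up to 3 genes per direction by adjusted p, and always Cdkn1a, Cdkn1b, Cdkn2c, Myc, Ccnd1, Ccnd2, Ccnd3, Mki67 and Ccna2. Other members were named after their values were seen. The members and lists were chosen with earlier results of these data known. Alternatives were other scalings, no filter, DESeq2 1.42.0, libraries of 1 model, a replicate block and leaving out each library.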

Additional observations from a re-analysis of the deposited data

Results flagged for a closer look

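Some results were singled out because an effect differed between groups by a test of the difference itself. The first is the knockout effect without ATRA, MN1 minus H9M, called for 28 members, with log2 differences of -0.42 for Mcm5, -0.31 for Rrm2, -0.34 for Mcm2, -0.30 for Pcna and 0.18 for Tyms. The LR code in the column names goes with the model, and what it marks cannot be told apart from it. The second is the ATRA effect in control cells, MN1 minus H9M, called for 11 members, with 0.36 for Cdc45, 0.33 for Tk1, 0.40 for Gins3, 0.25 for Orc6 and -0.13 for Rrm1. The third is the interaction of knockout and ATRA in H9M, called for 7 members, with 0.52 for Orc1, 0.22 for Lig1, 0.16 for Mcm5 and 0.22 for Pold1, beside 7.52% of the control Kdm1a level left in H9M KO + ATRA.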

How the results depend on the processing

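Of the 288 calls of members in the 14 comparisons, 237 held under every setting tried and 51 were lost in at least 1. The counts of members called, both directions together, stayed within 1.5 times of those reported except in 2 tests of differences. Counts in 1 direction moved further in some direct comparisons. By library totals alone, members higher in H9M KO + ATRA than in H9M CTL without ATRA went from 4 to 2. Those higher with ATRA in MN1 KO went from 1 to 4. The H9M interaction, with 7 members, gave 3 with no filter on low counts, 2 when libraries of 1 model were fitted alone, and 2 to 7 when single libraries were left out. The ATRA effect of MN1 minus H9M, with 11 members, gave 6 to 10 when single libraries were left out. The cause was not tested. Library totals alone turned the median change of members with ATRA in MN1 KO to 0.0023, against -0.04 with TMM. In MN1 CTL they turned it to 0.0058, against -0.02, and they moved the shares of all genes called higher with ATRA, as given beside those comparisons. The median H3K4me2 ratio was 0.975 with 500 bases either side, where Rpa1 and Rrm2 were past 1.5-fold lower.

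With replicate number as a replicate block, members higher and lower were 1 and 37 in MN1 KO without ATRA, 1 and 36 with ATRA, 2 and 27 in H9M KO without ATRA and 7 and 16 with ATRA. The interaction gave 0 in MN1 and 5 in H9M, and the model differences 2 and 25 for knockout and 10 and 0 for ATRA. Same-numbered libraries had correlations of deviations between -0.075 and 0.077, so the numbers were not taken to pair them. Ccne1 was called higher in H9M KO without ATRA with the block, with RLE scaling and by DESeq2. Removal of the residual control counts from H9M KO + ATRA, chosen after the data were seen, left 8 members higher and 17 lower than in H9M CTL + ATRA.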
